A study of Rattus norvegicus with 4 samples.

Results

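Ret, Kit and Met are receptor tyrosine kinases, and they were followed here with their ligands and co-receptors, 8 genes in all: Ret with the co-receptors Gfra1 and Gfra2 and the ligand Gdnf, Kit with its ligand Kitlg, and Met with its ligand Hgf. The genes were chosen by name with earlier results of these data known, in which Ret had stood out as low in tumour 1, and every probe set that the platform annotation assigned to a single member was used. All 8 genes were on the array, with 15 probe sets, out of 14217 named genes and 31042 probe sets without controls. The samples were 4 mammary cancers of female Sprague-Dawley rats, an outbred stock, that had received a single whole-body dose of 0.5 Gy of carbon ions (290 MeV/u, with a 6 cm spread-out Bragg peak) at 7 weeks of age and a high-fat diet (corn oil, 23.5%) once past the age of 9 weeks. Irradiation and diet were shared by all 4 tumours, which form 1 group, and unirradiated rats and normal gland were not analysed here, so no value measures an effect of either. Whether each tumour had its own donor animal is not stated in the labels. Each tumour was measured on 1 array, so no difference between tumours has a replicate check, and none is given a p-value. The number of arrays limits the precision.

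A receptor tyrosine kinase spans the cell membrane, binds a protein ligand outside and phosphorylates tyrosines inside, which recruits adaptor proteins and starts the Ras, mitogen-activated protein kinase and phosphoinositide 3-kinase cascades. Ret binds its ligands of the glial cell line-derived neurotrophic factor family only together with a GFR-alpha co-receptor, and in breast cancer it is known as an oestrogen-responsive gene. Kit, the receptor of stem cell factor, marks mast cells, melanocytes and luminal progenitor cells of the mammary gland, and Met, the receptor of hepatocyte growth factor, acts in the branching of mammary epithelium.

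Signals were taken as log2(signal + 16) with each array shifted to a common median, so that a difference of 1 stands for 2-fold in a bright probe set and for more than that in a dim one. A probe set is called expressed where its mean over the tumours is at least 7.81 log2, a signal of 209, which is the midpoint of the probe-set means on the array. Of the 15 member probe sets 9, from 5 genes, were expressed: 3 of Ret, 3 of the 4 of Kitlg and 1 each of Kit, Met and Gfra1. Gfra2, Gdnf and Hgf had none. Among the 9 expressed probe sets, 7 had at least a 2-fold range between the highest and the lowest tumour, beside 13.2% of all 15527 expressed probe sets, and 3, all of Ret, had at least a 4-fold range, beside 2.3%. Since members were chosen with these values in view, the shares describe them only. The luminal markers Krt8 and Epcam, which mark the epithelium of a mammary cancer, lay between 12.36 and 13.31 and between 12.82 and 13.76 log2 in the 4 tumours.

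**Figure D1:**
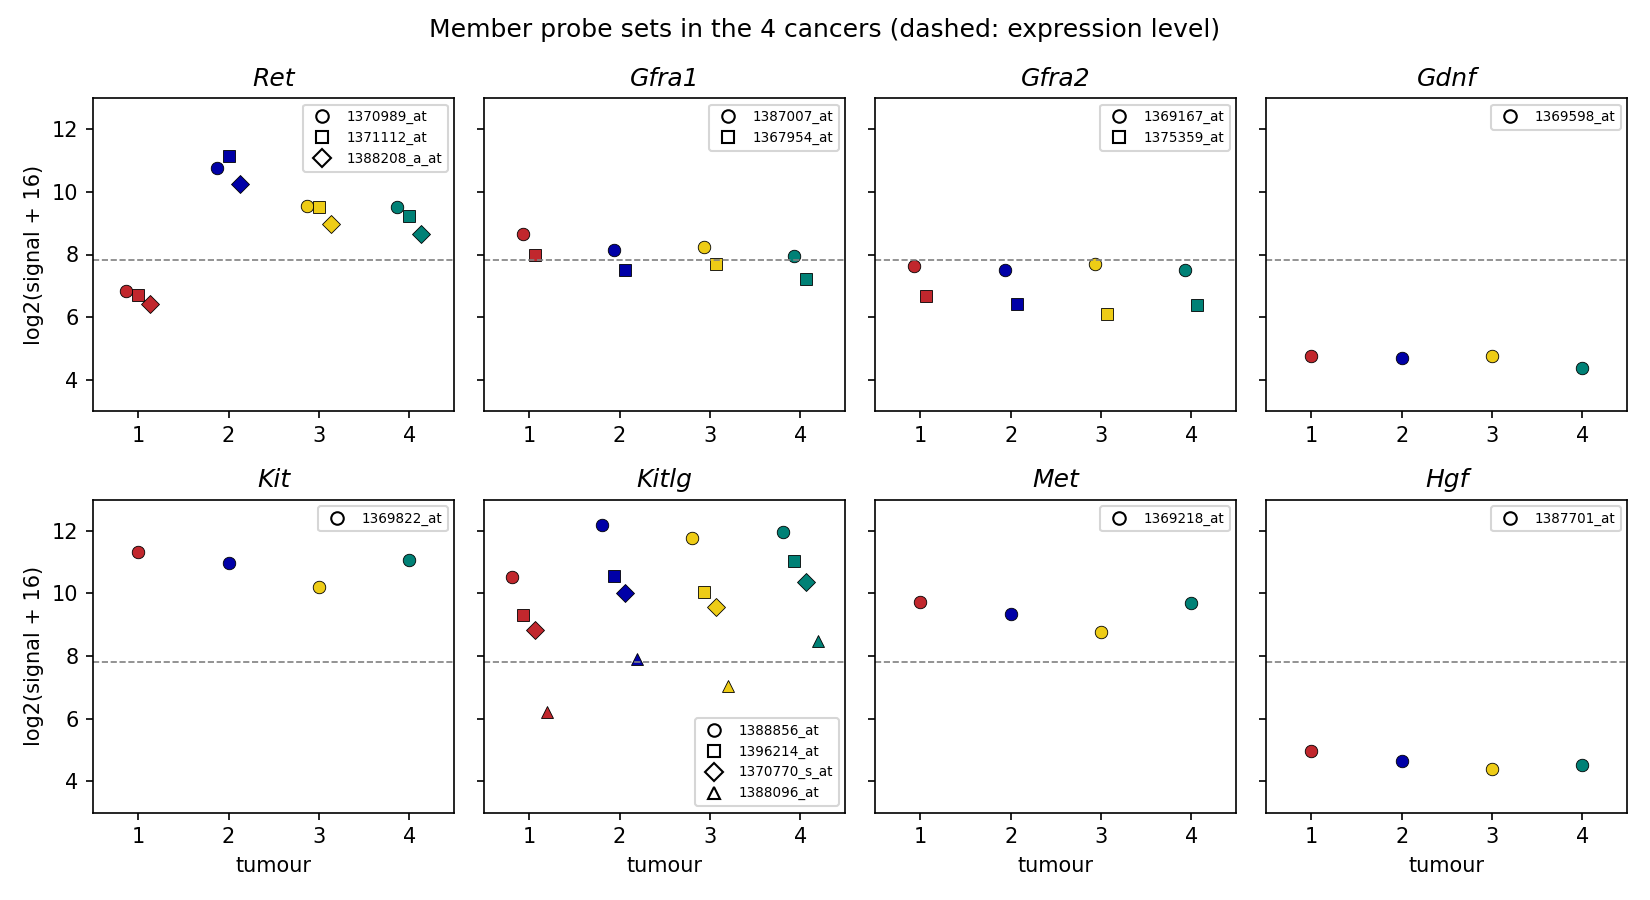
Log2(signal + 16) of the 15 member probe sets (symbols) in tumours 1 to 4 (x axis), a panel for each gene, with the expression level of 7.81 log2 dashed. All 3 Ret and all 4 Kitlg probe sets are lowest in tumour 1, Kit and Met are lowest in tumour 3, and Gdnf and Hgf lie under 5 log2 throughout.

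The bases in front of the annotated start are shown for Ret and Kitlg, which had their lowest signal in the same tumour, and for Kit, which had its highest there. They are the 250 bases before the RefSeq start in assembly GRCr8, 5′ to 3′, with capitals for a matched motif.
Ret (GRCr8 chr4:153040557-153040806, minus strand): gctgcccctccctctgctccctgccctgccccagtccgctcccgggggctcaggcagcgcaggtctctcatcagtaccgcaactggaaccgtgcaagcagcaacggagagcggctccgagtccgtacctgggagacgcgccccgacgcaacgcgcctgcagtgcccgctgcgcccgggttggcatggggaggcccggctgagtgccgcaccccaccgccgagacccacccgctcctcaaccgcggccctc
Kitlg (GRCr8 chr7:36782410-36782659, plus strand): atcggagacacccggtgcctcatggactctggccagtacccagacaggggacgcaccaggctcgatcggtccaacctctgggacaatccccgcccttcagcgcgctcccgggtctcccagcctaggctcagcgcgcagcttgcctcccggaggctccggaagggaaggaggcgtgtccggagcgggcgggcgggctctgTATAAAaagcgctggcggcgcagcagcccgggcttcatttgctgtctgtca
Kit (GRCr8 chr14:32978813-32979062, minus strand): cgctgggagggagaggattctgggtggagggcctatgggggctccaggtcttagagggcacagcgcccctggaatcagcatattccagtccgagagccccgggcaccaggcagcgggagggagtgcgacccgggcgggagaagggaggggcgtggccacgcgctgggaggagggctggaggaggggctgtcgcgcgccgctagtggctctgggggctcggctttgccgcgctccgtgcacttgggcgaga
Searching 4 motifs on both strands gave a single match in these 3 windows, TATAAA in Kitlg, 51 to 46 bases before the start, and 12.9% of 33469 promoters of the same length hold those letters. The letters GATAAG, held by 6.18% of promoters, had no match here. Nor did AGGTCA, which 14.1% of promoters hold, or the palindrome CACGTG, which 5.59% hold. No matches overlapped. What the 3 windows share is a high content of G and C, 72.8% in Ret, 67.2% in Kitlg and 70.8% in Kit against a median of 51.2% over all promoters. They hold 25, 22 and 20 CG dinucleotides against a median of 5. Met and Gfra1, which were also highest in tumour 1, are not shown. The Met window holds 42% G and C and 3 CG dinucleotides, and the Gfra1 window 62% and 15.

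Ret (Entrez Gene 24716) was under the expression level in tumour 1 and above it in the other 3 cancers, with the highest level in tumour 2. On the brightest probe set, 1370989_at, the deposited signal was 102, 1668, 707 and 738 in tumours 1 to 4, or 6.82, 10.77, 9.56 and 9.51 log2 (mean 9.16 ± 1.67, SD, n = 4). Tumour 1 thus lay apart at the bottom, tumour 2 apart at the top, and tumours 3 and 4 close together between them.
The second probe set, 1371112_at, gave 93.0, 2152, 681 and 608, and the third, 1388208_a_at, which by its suffix matches alternative transcripts of the gene, gave 74.1, 1158, 463 and 402. The order of the tumours was the same on all 3. The log2 difference of tumour 1 from the mean of the others was -3.13, -3.26 and -2.86 on the 3 probe sets, and that of tumour 2 was 2.14, 2.65 and 2.23.

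The highest signal of Ret was 16.3, 23.2 and 15.6 times the lowest on the 3 probe sets. Because tumour 1 was under the expression level on each of them, these ratios rest on a dim signal. With values under the level set to it, the range was 2.96, 3.32 and 2.44 log2, still above 4-fold on each probe set, and 7 of the 9 expressed member probe sets kept a 2-fold range, beside 11.4% of all expressed probe sets so treated. The position of tumours 3 and 4 was less settled. They were 0.05 log2 apart on 1370989_at, and their order on that probe set turned with the values as deposited (9.50 and 9.56) and after quantile normalization (9.50 and 9.56). Without tumour 1 the range on the same probe set was 1.26 log2, and without tumour 2 it was 2.74.

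The probe sets of Ret resembled each other more than any other expressed gene resembled Ret. After each profile's own mean was taken off, the root mean square difference over the 4 tumours was 0.17, 0.22 and 0.24 log2 between its probe sets. These are not independent measures, since all share the RNA and the array, and 1371112_at and 1388208_a_at were designed from the same sequence record. Among 226 genes with at least 2 expressed probe sets and a 2-fold range on the brightest, the 2 brightest had the same lowest tumour in 80.5% and the same order of all 4 tumours in 43.4%.

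**Figure D2:**
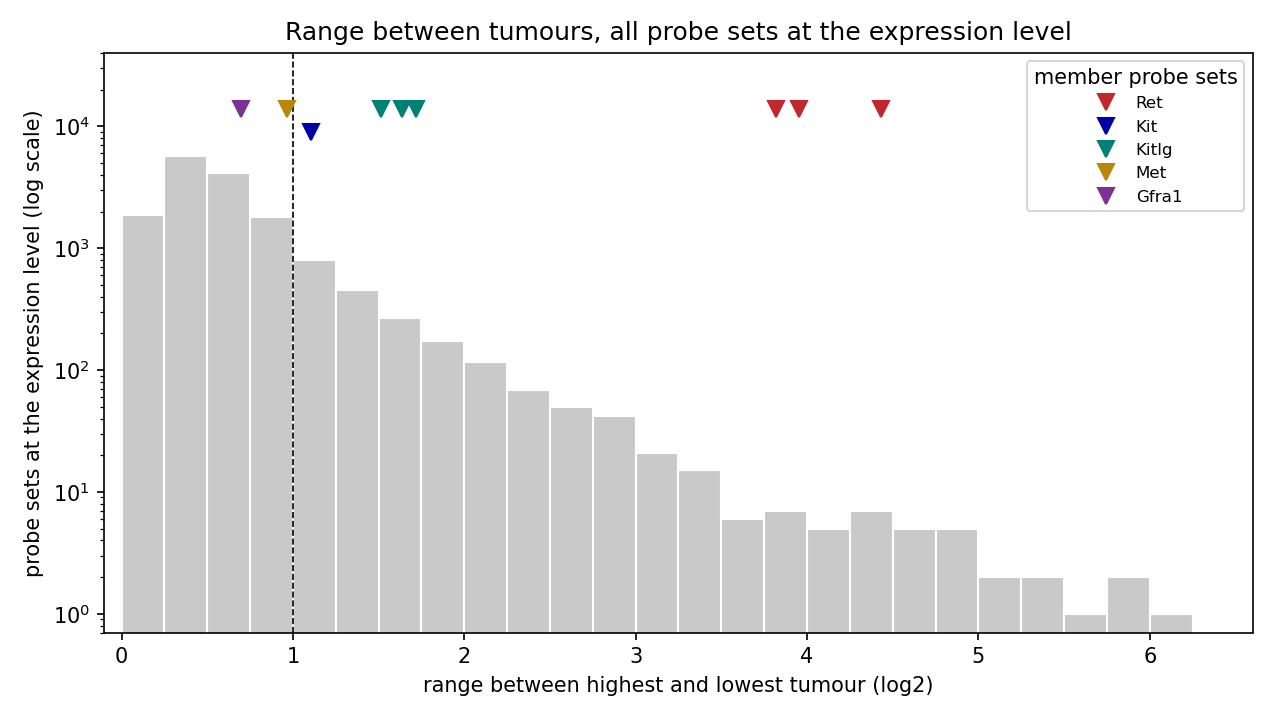
Number of expressed probe sets (y axis, log scale) by the range between the highest and the lowest tumour (x axis, log2, in steps of 0.25), with the 9 expressed member probe sets as triangles and the 2-fold line dashed. The 3 probe sets of Ret lie between 3.82 and 4.43, those of Kitlg between 1.51 and 1.72, Kit at 1.10, Met at 0.96 and Gfra1 at 0.70.

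Of the member co-receptors only Gfra1 was expressed, and it did not follow Ret. Gfra1, the co-receptor that binds Gdnf, had its highest signal in tumour 1, where Ret was lowest. The brighter probe set, 1387007_at, gave 407, 256, 273 and 242, or 8.66, 8.14, 8.24 and 7.96 log2 (mean 8.25 ± 0.30, SD, n = 4). The other probe set, 1367954_at, was expressed in tumour 1 only, at 7.98 against 7.50, 7.68 and 7.22 log2. Both gave the same order of tumours, 1, 3, 2 and 4, also with the values as deposited and after quantile normalization. The ranges were small, 0.70 and 0.77 log2, and 29.1% and 23.7% of all expressed probe sets had a range at least as large.

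Gfra2, the co-receptor that prefers neurturin, was under the expression level in every tumour on both probe sets, which did not share an order. On 1369167_at it lay between 7.51 and 7.70 log2, a range of 0.19, and on 1375359_at between 6.09 in tumour 3 and 6.67 in tumour 1. The highest tumour on 1369167_at was tumour 3, or tumour 1 with the values as deposited.
Gdnf, the ligand, gave a signal of 12.6, 9.09, 9.97 and 5.29 on its only probe set, and 4.57% of all probe sets had a lower mean. At that signal the pseudocount sets most of the log2 value, and no order of the tumours can be read from it.

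The other expressed genes of this ligand family were lowest in tumour 1, Pspn and Gfra3 by small margins of 0.11 and 0.05 log2. Of 10 listed ligands, co-receptors and partners, 8 were measured and 5 expressed (Nrtn, Pspn, Gfra3, Sorl1 and Sdc3). All 5 had their lowest value in tumour 1, or 4 of 5 with the values as deposited, and it was also the lowest tumour in 44% of all 9403 expressed genes, and their median difference from the mean of the others was -0.63 log2 against -0.13 over all expressed genes.
Nrtn, which encodes neurturin, measured 8.99, 9.58, 10.26 and 9.43 log2, and Pspn, which encodes persephin, 7.34, 7.45, 8.55 and 8.34. These were the 2 genes with a 2-fold range, and both were highest in tumour 3 and not, as Ret was, in tumour 2. Pspn was under the expression level in tumours 1 and 2, and with such values set to the level its range was 0.74 log2. Gfra3, the co-receptor that prefers artemin, was at 7.66, 8.14, 7.94 and 7.71. Its tumours were in the order of Ret, with a range of 0.48 log2 and with tumours 1 and 4 under the expression level. Sorl1, a sorting receptor that binds Gdnf and its co-receptor, was at 10.47, 10.94, 11.33 and 10.99, and 7 of its 8 probe sets were lowest in tumour 1. Sdc3, a heparan sulphate proteoglycan, was at 8.37, 9.17, 8.66 and 9.17.

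Kitlg (Entrez Gene 60427), the ligand of Kit, was lowest in tumour 1 on all 4 of its probe sets. The brightest, 1388856_at, gave a signal of 1541, 4446, 3308 and 4080, or 10.54, 12.18, 11.76 and 11.95 log2 (mean 11.61 ± 0.73, SD, n = 4). On this probe set tumour 1 lay 1.22 log2 below the nearest other tumour, which made it 1 of 4 expressed member probe sets with tumour 1 at least 2-fold below each other tumour, beside 1.25% of all expressed probe sets. The other 3 were those of Ret. Ret was known to be low in tumour 1 when the members were chosen, so the count only describes them.

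The probe sets of Kitlg agreed on the lowest tumour and not on the highest. 1396214_at gave 9.31, 10.56, 10.06 and 11.03 log2, 1370770_s_at gave 8.84, 10.00, 9.58 and 10.35, and 1388096_at, under the expression level by its mean, gave 6.21, 7.89, 7.04 and 8.48. All 3 were highest in tumour 4, by 0.48, 0.35 and 0.59 log2 over tumour 2, whereas 1388856_at was highest in tumour 2, by 0.22. Tumour 3 was second lowest on all 4. Between 1388856_at and the others the root mean square difference of the profiles was 0.32, 0.27 and 0.45 log2, against 0.08 between 1396214_at and 1370770_s_at. This split was the same with the values as deposited and after quantile normalization. The suffix of 1370770_s_at marks probes that can match more than 1 transcript. Without tumour 1 the range on 1388856_at was 0.42 log2 instead of 1.64.

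Kit (Entrez Gene 64030) was highest in tumour 1, where its ligand was lowest, and lowest in tumour 3. Its only probe set, 1369822_at, gave a signal of 2656, 1914, 1123 and 2221, or 11.32, 10.97, 10.22 and 11.08 log2 (mean 10.89 ± 0.48, SD, n = 4). Tumour 3 lay 0.75 log2 below the next tumour, and the other 3 lay within 0.35 log2 of each other, which is also the range without tumour 3.
The range of 1.10 log2 was past 2-fold by a small margin, and 10.7% of expressed probe sets had a range at least as large. With a single probe set, no check between probe sets was possible for Kit.

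Met (Entrez Gene 24553) gave the same order of tumours as Kit, 1, 4, 2 and 3. On 1369218_at, its only probe set, the signal was 874, 610, 402 and 843, or 9.73, 9.34, 8.77 and 9.70 log2 (mean 9.39 ± 0.45, SD, n = 4). Tumours 1 and 4 were 0.04 log2 apart and tumour 3 was 0.57 below the next. The range was 0.96 log2, just under 2-fold, and 1.09 with the values as deposited and 1.06 after quantile normalization, so that Met passed 2-fold under both. Without tumour 3 it was 0.39.
The centred profiles of Kit and Met differed by a root mean square of 0.10 log2, against 0.83 between Ret and Kitlg, and 0.42 and 0.43 between Gfra1 and Kit and between Gfra1 and Met. Hgf, the ligand of Met, which stromal cells make, was dim in all tumours, at a signal of 16.5, 7.97, 4.10 and 7.65, and 4.27% of probe sets had a lower mean. No order can be read from values at that end of the scale either.

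Among the receptor tyrosine kinases as a family, Ret and Pdgfra had the largest ranges between these tumours, and which came first depended on how dim values were treated. Of 58 receptor genes listed after the data were seen, 50 were measured and 33 expressed, and 15 of the 33 had a 2-fold range, beside 13% of all expressed genes. Ranked by range on the brightest probe set, Ret came first with 3.95 log2 and Pdgfra second with 3.34, Kit was in place 13 and Met in place 17. With values under the expression level set to it, which changes Ret in tumour 1 and leaves Pdgfra as it was, Ret was second with 2.96 log2, Kit in place 11 and Met in place 16, and 13 of the 33 kept a 2-fold range, beside 11.5% of all expressed genes. The median range was 0.96 log2 for the receptors and 0.51 for all expressed genes.
Pdgfra and Pdgfrb, receptors of mesenchymal cells, stood beside Ret at the top with Ddr2, a collagen receptor, at 3.34, 1.95 and 2.05 log2, and all 3 were lowest in tumour 4. The 2 other probe sets of Pdgfrb, under the expression level by their means, were lowest in tumour 2. Of the further Ddr2 probe sets, likewise under the level, 1368673_at was lowest in tumour 2 and 1379882_a_at in tumour 4. Fibroblast markers, a list that holds both Pdgf receptors, were low in the same tumour: all 8 expressed of 9 were lowest in tumour 4, beside 30.6% of all expressed genes, with a median difference of -1.63 log2 and a summed signal of 15244 against 38125 to 49406. Their part in the receptors' values was not tested. Flt1, a receptor of vascular endothelial growth factor, was the other receptor with a 2-fold range and the order of Ret (8.80, 10.00, 9.20 and 9.00), but its second probe set, also expressed, was highest in tumour 1. The receptors Egfr and Igf1r stayed within 0.52 and 0.31 log2.

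**Figure D3:**
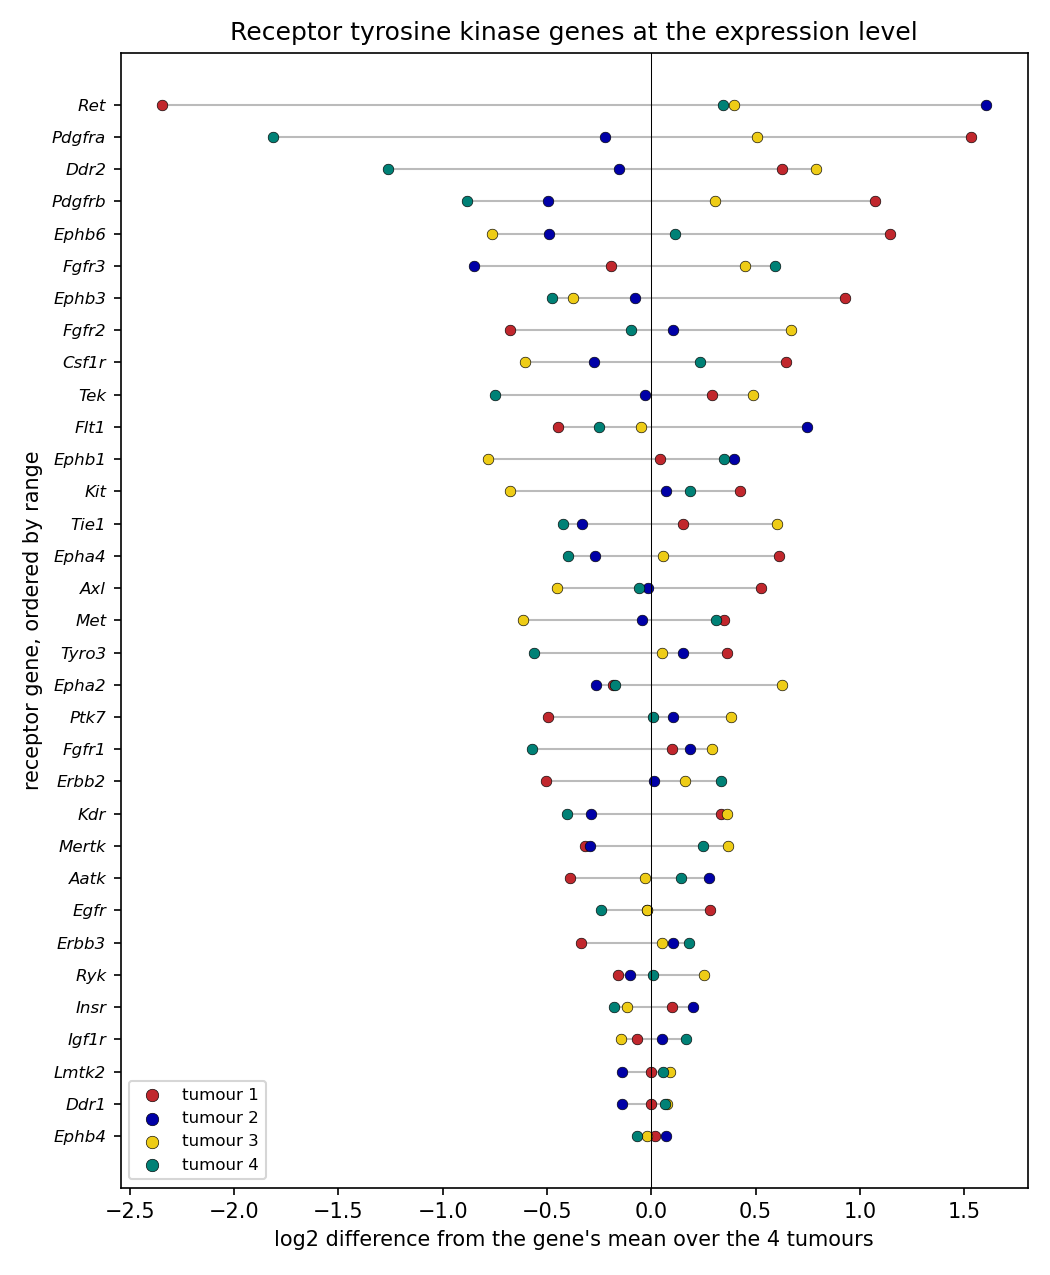
Log2 difference of each tumour (coloured points) from the gene's own mean (x axis) for the 33 expressed receptor tyrosine kinase genes, ordered by range (y axis), with a line from the lowest to the highest tumour. Ret has the longest line, 3.95 log2, with tumour 1, which was under the expression level, at the left and tumour 2 at the right end, and tumour 3 is at the left end for Kit and Met.

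Luminal and hormone-responsive markers shared with Ret and Kitlg the low value in tumour 1. Of 8 luminal markers, all expressed, 7 were lowest in tumour 1, beside 44% of all expressed genes, and they lay a median of -0.84 log2 from the mean of the other 3 tumours, against -0.13 over all expressed genes. The highest tumour was not shared with Ret: 5 of the 8, or 3 with the values as deposited and 2 after quantile normalization, were highest in tumour 3 and 1 in tumour 2. With the arrays shifted to a common median, tumour 3 was the highest in 33.2% of all expressed genes. Elf5, a transcription factor of luminal progenitors, was highest in tumour 1, at 11.75 against 11.29 to 11.56 log2. Their summed signal was 30582 in tumour 1 and between 48082 and 55374 elsewhere. Of 8 markers of hormone-responsive epithelium, 6 were expressed, 5 of these were lowest in tumour 1, beside the same 44%, and the median difference was -2.02 log2. The summed signal of all 8 was 6633 in tumour 1 and 20869 to 29902 elsewhere.
Pgr, the progesterone receptor, measured 8.04, 10.87, 10.36 and 9.57 log2 and Gata3, a luminal transcription factor, 10.52, 12.04, 11.95 and 11.37. Both had the tumours in the order of Ret on these probe sets, and the second probe set of Gata3 was also lowest in tumour 1, with tumour 3 highest. The other expressed hormone-responsive markers had other orders. Prlr, Areg and Wnt4 were lowest in tumour 1 and highest in tumour 3, and Greb1 was lowest in tumour 4 (8.56, with tumour 1 at 8.82). Krt18, a luminal keratin, was at 11.90 in tumour 1 and 12.90 to 13.36 elsewhere. Esr1, the oestrogen receptor gene, and Foxa1 were under the expression level by their means, at 4.86 and 4.43 in tumour 1 and at 6.96 to 8.20 and 6.05 to 6.67 elsewhere. In bulk tissue, fewer cells of a type and less RNA per cell cannot be told apart, and the part of these markers in the values of Ret and Kitlg was not tested.

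Kit and Met were lowest where basal and macrophage markers were lowest. Of 6 expressed basal and myoepithelial markers out of 7, 4 were lowest in tumour 3, beside 13.9% of all expressed genes, with a median difference of -1.11 log2, and the summed signal was 17149 in tumour 3 against 21773 to 26919. Krt14, the basal keratin, was at 8.30 log2 in tumour 3 and between 11.39 and 12.33 elsewhere. Krt14, Krt17 and Tp63 were highest in tumour 1, where Ret was lowest. The other 3, Krt5, Acta2 and Myh11, were highest in tumour 4. Acta2 was lowest in tumour 1, as Ret was (12.34 against 12.88 to 12.98 log2). The second probe set of Tp63, under the expression level by its mean, was highest in tumour 4. All 6 expressed macrophage markers out of 7 were lowest in tumour 3, beside the same 13.9% of all expressed genes. All 6 were also highest in tumour 1, for which no share of all genes was taken. Their summed signals were 14077, 7492, 3694 and 7292 in tumours 1 to 4. The second probe set of Aif1, also expressed, did not follow and ran from 7.83 in tumour 2 to 8.41 in tumour 4.
Mast cells carry Kit, and their expressed markers gave another order. The summed signal over 8 measured mast cell markers was 1485, 1777, 914 and 729. The 2 expressed markers, the proteases Cpa3 and Tpsb2, were highest in tumour 2 and lowest in tumour 4, where Kit was second highest. The 6 others, among them the receptor genes Fcer1a and Ms4a2, were under the expression level and did not share an order. Mcpt1 had the order of Kit, and Fcer1a was highest in tumour 1, as Kit was. Tpsab1, Cma1, Hdc and the brighter probe set of Ms4a2 were highest in tumour 2, and the other Ms4a2 probe set in tumour 1. None of 5 melanocyte markers was expressed. The part of these cells in the values of Kit and Met was not tested.

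**Figure D4:**
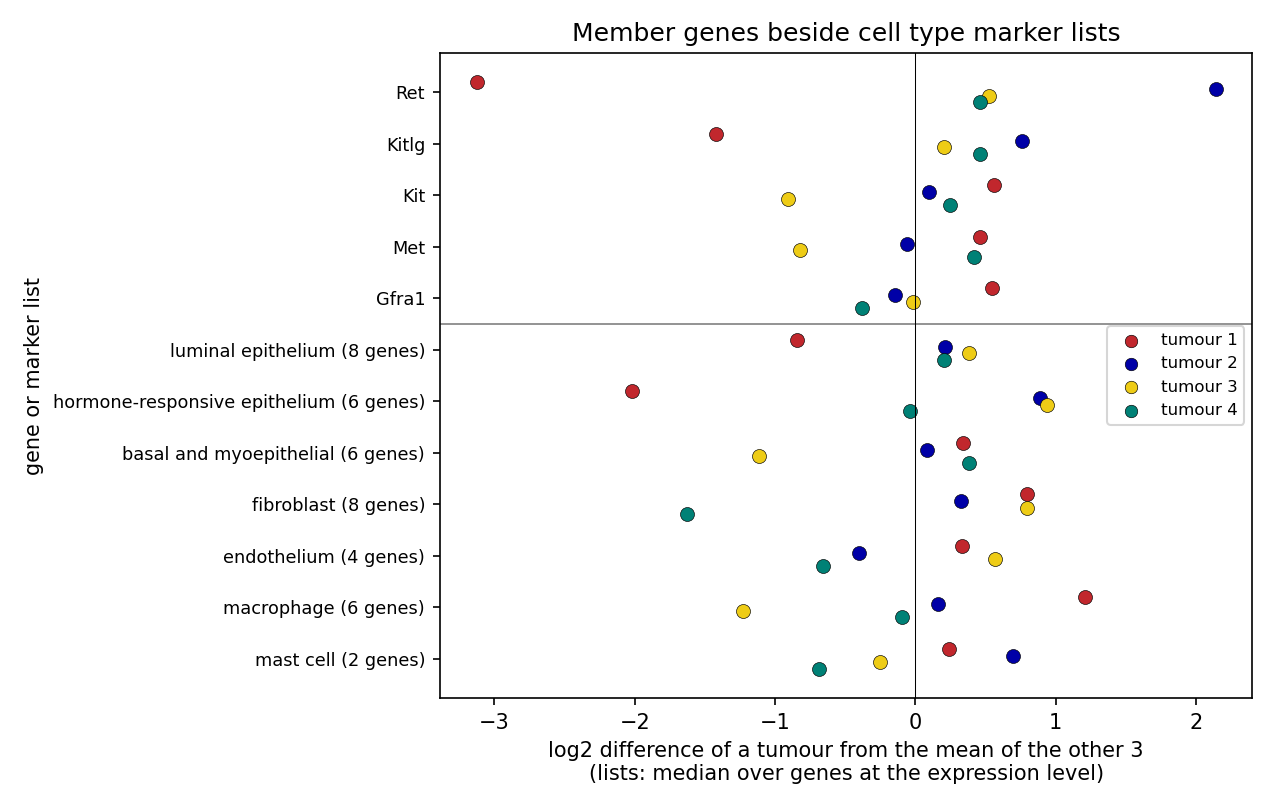
Log2 difference of each tumour (coloured points) from the mean of the other 3 (x axis) for 5 member genes on their brightest probe set and, below the line, the median over the expressed genes of 7 marker lists (y axis). Tumour 1 is at -3.13 for Ret, -1.42 for Kitlg and -2.02 for hormone-responsive markers, and tumour 3 is at -0.91 for Kit, -0.82 for Met and -1.11 for basal markers.

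The genes whose profile over the 4 tumours was most like that of Ret were Fbp2, a gluconeogenic enzyme, the claudin gene Cldn3, the progestin receptor family gene Paqr5, the transcription factor gene Myb, and Pgr. Their root mean square differences from Ret lay between 0.43 and 0.49 log2, and no gene among 9398 came within 0.25. All 5 were lowest in tumour 1, as Ret was, and Myb was highest in tumour 3. Because the genes were chosen for likeness to Ret, a low tumour 1 was part of what selected them. Cldn3, for example, was at 9.15, 12.02, 11.86 and 11.56, with tumours 2 to 4 closer together than those of Ret. In tumour 1 Fbp2 and Paqr5 were dim, at 6.23 and 5.97 log2, and Myb was just under the expression level, at 7.80. With such values set to the level, the ranges of Fbp2 and Paqr5 were 1.37 and 1.12 log2 instead of 2.95 for each.
Kit had much closer neighbours, with 250 genes within 0.25 log2. The nearest were Rab38, a small GTPase gene of pigment organelles, at 0.03, Tiam1, which activates Rac, at 0.04, Cytip, at 0.05, the MHC class II gene RT1-Da, at 0.07, and the T-cell costimulator Icos, at 0.08. For Kitlg 68 genes came within that distance, and Matn2, Pir, Akr1b8, Armcx3 and Abca3 were nearest, at 0.12 to 0.14. With 4 tumours and 9398 genes to choose from, close matches to a profile of modest range are common.

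**Figure D5:**
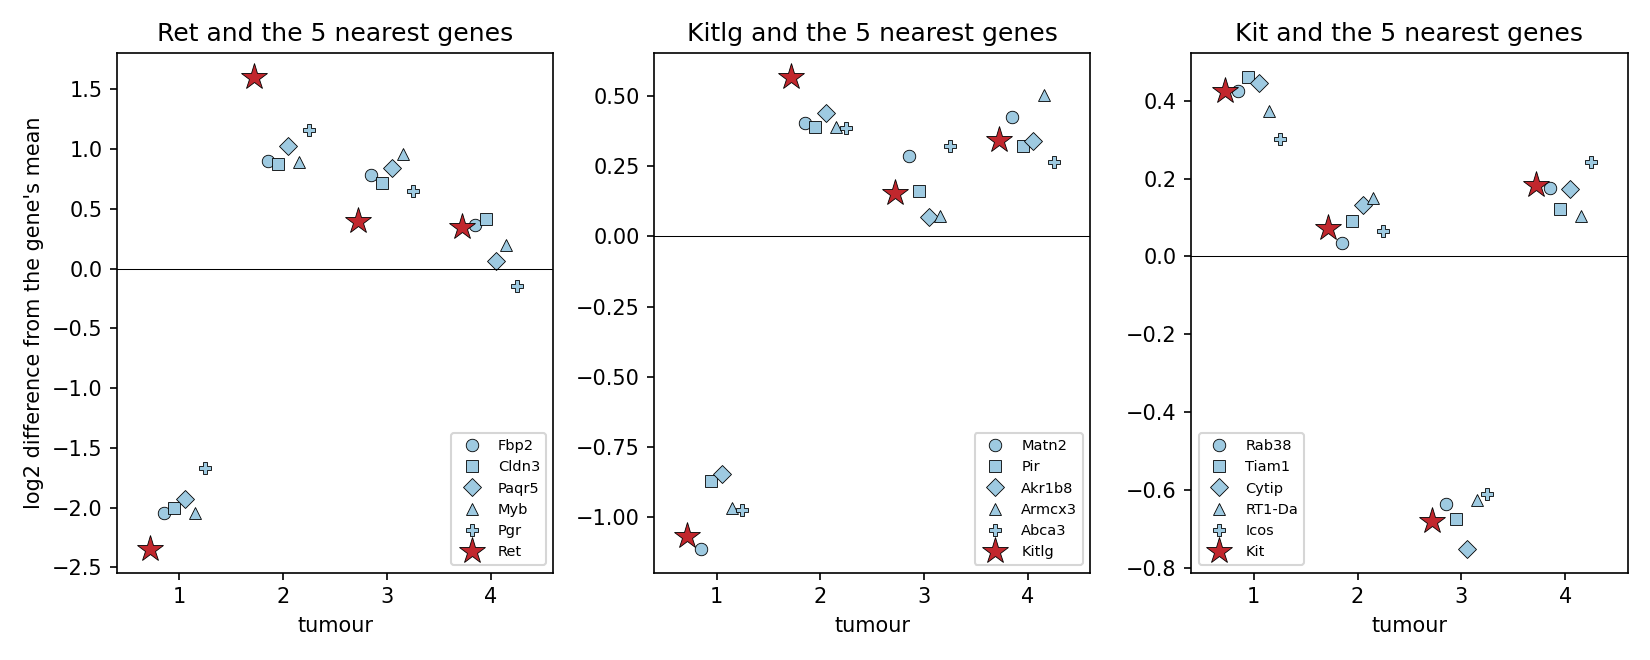
Log2 difference from the gene's own mean (y axis, a different scale in each panel) in tumours 1 to 4 (x axis) for Ret, Kitlg and Kit (stars) and the 5 expressed genes nearest to each. The genes near Kit lie within 0.08 log2 of it by root mean square, and those near Ret are 0.43 to 0.49 away.

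Most partners and downstream genes of the receptors differed by under 2-fold between the tumours. Over the 5 pathway lists, 65 of 85 measured genes were expressed and 14 of these (21.5%) had a 2-fold range, beside 13% of all expressed genes, with a median range of 0.74 log2 against 0.51. With values under the level set to it, 11 had a 2-fold range, beside 11.5%; Pspn, Mitf and Grb10 were then under 2-fold. Among shared adaptors and cascade genes 4 of 20 had a 2-fold range, and Shc1, Grb2, Ptpn11, Map2k1 and Nras, which carry the signal to Ras and beyond, stayed within 0.37, 0.34, 0.19, 0.29 and 0.32 log2.
The 4 that did not were Pik3r1, the regulatory subunit of phosphoinositide 3-kinase (10.48, 10.37, 10.31 and 8.34 log2), the adaptor genes Grb10 (7.63, 6.84, 8.75 and 8.42) and Grb7 (8.27, 9.20, 9.51 and 9.79), and Dok1, a docking protein (9.85, 8.36, 8.31 and 8.31). Tumour 4 was the low one for Pik3r1 and tumour 2 for Grb10, while tumour 1 was low for Grb7 and high for Dok1. The 2 other probe sets of Grb10, which were not expressed, did not repeat its range (0.94 and 0.29 log2).

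Genes that report on or restrain the cascade had a median range of 0.78 log2, above the 0.51 of all expressed genes. Of 13 expressed, 1 (7.69%, beside 13% of all expressed genes) had a 2-fold range, Myc at 10.64, 11.21, 11.22 and 10.16 log2, and none did with the values as deposited. Of the 13 genes 9, or 8 with the values as deposited or after quantile normalization, were highest in tumour 3, which was the highest tumour in 33.2% of all expressed genes. Among them were Phlda1 (11.05 against 10.12 to 10.28), Errfi1, a feedback inhibitor of receptors (10.83 against 9.93 to 10.64), and Spry4, a Sprouty inhibitor (10.51 against 9.63 to 10.12). Dusp6, the phosphatase of extracellular signal-regulated kinase, lay between 12.76 and 13.09 on its brightest probe set and between 12.46 and 12.90 on the next, but 1382778_at, also expressed, ran from 9.54 in tumour 3 to 11.34 in tumour 2.

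Around Kit, 2 of 12 expressed partners and downstream genes had a 2-fold range (16.7%, near the 13% of all expressed genes), or 3 with the values as deposited and 1 with values under the level set to it. Mitf, a transcription factor of melanocytes and mast cells, was at 8.80, 8.09, 8.11 and 7.31 log2, under the level in tumour 4, and its other, dim probe set ran from 5.97 in tumour 1 to 6.89 in tumour 4. Inpp5d, a phosphatase of blood cells, was at 9.02, 8.41, 8.02 and 8.22, and Ptpn6, another phosphatase that dampens Kit, at 9.48, 9.01, 8.59 and 8.80. Both had tumour 1 highest and tumour 3 lowest, as Kit did. Etv1, a transcription factor that acts with Kit in interstitial cells, was at 9.03, 8.49, 8.36 and 8.09.

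Around Met and Hgf, 5 of 15 expressed genes (33.3%) had a 2-fold range, beside 13% of all expressed genes. Among the proteases that can activate Hgf, Hpn, which encodes hepsin, was at 8.27, 9.42, 10.02 and 9.48 log2, and Plau, the urokinase gene, at 10.55, 9.18, 8.95 and 9.35. Hpn was thus lowest and Plau highest in tumour 1, and the second probe set of Plau was also highest there (9.58 against 7.90 to 8.13). The serine protease gene Tmprss2 was at 10.23, 9.17, 9.40 and 10.11. Cd44, a co-receptor of Met, was at 10.36, 9.40, 8.84 and 8.98, and both its probe sets gave the same order of tumours. The matriptase gene St14 and its inhibitors Spint1 and Spint2 differed by under 2-fold, and all 3 were lowest in tumour 1. Over the list, 6 of the 15 expressed genes were lowest in tumour 1, beside 44% of all expressed genes.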

How the data were processed

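Total RNA (8 µg) from each of 4 cancers was primed at the poly(A) tail, labelled with biotin and hybridised to 1-colour oligonucleotide arrays, per the labels' protocols. The authors deposited linear intensity values, 1 per probe set and tumour. How they scaled the arrays and corrected background is not given in the sources used here. Median signals lay between 201.8 and 221.9, no arrays held identical values, and no detection or saturation calls were used. A pseudocount of 16 was added before log2, and the arrays' medians were made equal by shifts between -0.07 and 0.06 log2 (numpy 2.4.6, pandas 2.3.3). Control probe sets (57) and those naming several genes (436) were left out of gene-level counts. The brightest probe set stood for a gene. All member gene identifiers matched the RefSeq gene table of GRCr8, which also names the promoters' build, and 7 of 8 members had a promoter entry. With 1 group, no test compared conditions. Differences were described by size, and Dixon's ratio was used to mark single tumours. Named were every member probe set, the 4 genes of largest range among the expressed in each of 5 pathway lists, and the 5 genes nearest to each member with a 2-fold range. Examples beyond that rule were chosen after their values were seen. The members and lists were chosen with earlier results of these data known, and the list of receptor tyrosine kinases was added after the data were seen. The functions were tested on simulated data.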

Additional observations from a re-analysis of the deposited data

Results flagged for a closer look

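A tumour was marked when its gap to the nearest other tumour, as a share of the gene's whole range over the 4 tumours, exceeded Dixon's 95% critical value. The 15 member probe sets and 99 other genes, 114 in all, were looked at in this way, and 7 were marked. Chance marks about 1 in 20 groups, and 5.31% of all 9403 expressed genes were marked, but neither share can be set against the 7, because many of the 99 genes were chosen for a large range or for a profile like that of Ret, Kit or Kitlg. No member probe set was among them. Tumour 1 stood apart for Dok1 (0.965), on the high side, and for Abca3 (0.910), Matn2 (0.909) and Cldn3 (0.840), on the low side. Cldn3 was chosen as near to Ret, and Abca3 and Matn2 as near to Kitlg, so a low tumour 1 was part of what selected them. Tumour 4 stood apart for Pik3r1 (0.921) and the collagen gene Col1a2 (0.858), both low, and for Krt5 (0.873), high, although the whole range of Krt5 was 0.17 log2. For genes other than members only the brightest probe set was looked at. On the other expressed probe set the gap was 1.80 of a range of 2.37 log2 for Col1a2 and 0.76 of 1.20 for Abca3. Both shares were too small for a mark.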

How the results depend on the processing

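Results were recomputed with a pseudocount of 1 or 64, values as deposited, quantile normalization, averaged probe sets, other expression filters and each tumour left out. The same changes for Kitlg, setting values under the expression level to it, and the use of each further probe set of Ret and Kitlg were added after seeing the data. Of 56 recomputed values, 50 moved by less than the spread between tumours, or by less than 1.5 times for a count. Some of the 50 could not move, such as averaged probe sets for Kit and Met, which have 1 probe set each. The same holds for leaving out a tumour that was neither highest nor lowest. The spread was the SD over the tumours, 1.67 log2 for Ret, so only a large change counted as a move. Apart from leaving out tumours, the range was 2.96 to 4.43 log2 for Ret, 1.47 to 2.27 for Kitlg, 1.09 to 1.28 for Kit and 0.90 to 1.09 for Met, and 4 to 8 member probe sets had a 2-fold range. The count of 4 came from an expression level at the 75th percentile, where 4 member probe sets were tested. Leaving out 1 tumour gave 1.26 to 3.95 for Ret (lowest without tumour 1), 0.42 to 1.64 for Kitlg (lowest without tumour 1), 0.35 to 1.10 for Kit and 0.39 to 0.96 for Met (both lowest without tumour 3), and counts of 3 to 7 (lowest without tumour 1). No paired analysis was possible because all samples form 1 group. Signals near the low end limit Ret in tumour 1, Gfra2, Gdnf and Hgf.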

Other observations

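Several genes around Hgf and Met were under the expression level by their means and still differed widely between the tumours. Plg, which encodes plasminogen, a relative of Hgf, was at 5.11, 8.79, 8.66 and 7.22 log2, a range of 3.68 with tumour 1 lowest. Dcbld2, a membrane protein that was listed as a partner of Met, was at 8.04, 4.57, 6.67 and 4.63, and Hgfac, the Hgf activator protease, at 6.65, 5.14, 7.45 and 4.96. The tryptase gene Tpsab1 reached 8.18 in tumour 2 and lay between 4.75 and 5.53 elsewhere. These genes were picked after their values were seen, and dim signals make the sizes uncertain.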
